A study of Rattus norvegicus with 4 samples.

Results

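Prdx4 and Bhlha15, a pair of genes of protein secretion, were followed in the maturing rat retina. Prdx4 encodes a peroxiredoxin of the endoplasmic reticulum (ER), and Bhlha15, also called Mist1, encodes a basic helix-loop-helix (bHLH) transcription factor of secretory cells. They were taken by gene symbol, 2 of 9653 genes named on the array, and each was measured by 1 probe. Both were selected on their ratios on these arrays, above all those at 20 weeks, so their own values are given as a description, with no test.

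The study asked how expression changes while the retina matures, in albino Lewis rats aged 5, 11 or 20 weeks. The labels name no treatment or mutation, and all rats were raised under ordinary laboratory conditions from birth. RNA from pooled whole retinas of an older age was labelled with one of the dyes Cy5 and Cy3, that of 5 weeks with the other, and both were put on the same array, with 2 arrays for 11 weeks over 5 weeks and 2 for 20 weeks over 5 weeks, the dyes exchanged within each pair. No label states separate RNA for the arrays of a pair, so the spread between them may be technical.

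The value on each array is a log2 ratio of the older over the 5-week retina, where 0 is the median of the named probes of that array and 1 is a 2-fold higher ratio. Cy5 over Cy3 was used as the likely direction, from the order of the ages in the titles, and the reverse direction would turn every sign below. Before centring, the arrays' medians over named probes lay between -0.13 and 0.54, the highest being that of the 20-week array with the older retina in Cy5. Across 9652 genes with a value on all arrays, the 2 arrays of a pair correlated at -0.30 for 11 weeks and at 0.17 for 20 weeks, against 0.68 and 0.59 for arrays of different ages with the older retina in the same dye. Ratios thus went with the dye more than with the age, and values are given by dye. The array gives ratios and no levels, so the presence of retinal or other cells could not be read from it. In whole tissue, a change in the number of cells of a type and a change in RNA per cell cannot be told apart.

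Secreted and membrane proteins enter the ER through a channel, are folded there by chaperones and by enzymes that form disulfide bonds, and leave in coated vesicles for the Golgi. Oxidation of disulfide bonds yields hydrogen peroxide, which Prdx4 consumes, passing the oxidation on to protein disulfide isomerases. When folding falls behind, the unfolded protein response raises chaperones and also acts through factors such as Atf4 and Ddit3. Bhlha15 is known from mouse exocrine glands, such as pancreatic acini and salivary glands, and from plasma cells, where it shapes the secretory apparatus, and it binds E-boxes, the short sequence CANNTG.

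The stretch before each gene's start is shown because Bhlha15 is a factor that binds E-boxes and both genes moved together at 20 weeks. The sequences are the 250 bases before the RefSeq start in build GRCr8 of the rat genome, with every match to CANNTG in capitals. Prdx4 lies on the plus strand at chrX:43878483-43878732 and Bhlha15 on the minus strand at chr12:15538300-15538549.
Prdx4: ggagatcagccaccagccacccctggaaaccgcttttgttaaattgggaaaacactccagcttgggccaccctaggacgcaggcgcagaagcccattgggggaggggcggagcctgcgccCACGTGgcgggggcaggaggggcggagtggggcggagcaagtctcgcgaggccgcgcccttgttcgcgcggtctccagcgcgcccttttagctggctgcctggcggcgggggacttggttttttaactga
Bhlha15: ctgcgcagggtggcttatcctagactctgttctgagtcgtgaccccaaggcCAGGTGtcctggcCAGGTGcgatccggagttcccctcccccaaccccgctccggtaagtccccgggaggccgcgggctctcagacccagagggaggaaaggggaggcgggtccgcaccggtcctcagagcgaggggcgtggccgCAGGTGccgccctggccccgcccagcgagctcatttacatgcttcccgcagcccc

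The Prdx4 stretch held 1 match, CACGTG, beginning 130 bases before the start. The Bhlha15 stretch held 3 matches, each reading CAGGTG, which began 199, 186 and 55 bases before the start. Of 7947 stretches of this length before genes measured on the array, 58.5% held CANNTG, 8.0% held CACGTG and 15.8% held CAGGTG, both strands searched. Neither gene's stretch held CAGCTG (12.3% of stretches), CATATG (1.6%), the unfolded protein response element TGACGTGG (0.742%) or the antioxidant response core TGACNNNGC (12.2%). CCACG, a part of the ER stress element, matched Prdx4 on both strands, overlapping its CACGTG, and matched Bhlha15 on 1 strand, against 39.0% of stretches. CCAAT, the other part of that element, matched Prdx4 at 2 places and Bhlha15 at none, against 35.2% of stretches. Both lay on the minus strand, beginning 208 and 156 bases before the start, where the CCACG matches began at 131 and 128. The parts were counted apart, and the joined element was not searched for. A match is a stretch of letters and not a bound site.

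Bhlha15 was above the median probe on all 4 arrays. Its log2 ratio was 0.41 with the 11-week retina in Cy5 and 0.27 with it in Cy3. It was 1.84 with the 20-week retina in Cy5 and 1.53 with it in Cy3. Both 20-week arrays thus lay above both 11-week arrays, whichever the dye. The means were 0.34 ± 0.10 at 11 weeks and 1.69 ± 0.22 at 20 weeks (SD, n = 2 arrays), ratios of 1.27-fold and 3.22-fold. Among 9652 genes, Bhlha15 ranked number 80 by its mean at 11 weeks and number 2 at 20 weeks.

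Prdx4 had no common direction at 11 weeks. Its log2 ratio was 0.34 with the 11-week retina in Cy5 and -0.09 with it in Cy3, a mean of 0.13 ± 0.30 (SD, n = 2) and rank 1602. At 20 weeks it was 2.29 with the older retina in Cy5 and 1.90 with it in Cy3, ratios of 4.89-fold and 3.73-fold on the single arrays. Its mean of 2.10 ± 0.28 was the highest of all genes, and it ranked number 1 and number 3 on the 2 arrays, where Bhlha15 ranked number 2 and number 11. At 20 weeks against 11 weeks, set against each other through the 5-week retina, Prdx4 was higher by 1.97 and Bhlha15 by 1.34, ratios of 3.91-fold and 2.54-fold. No array held both older ages, so age cannot be told apart from slide in that difference.

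**Figure D1:**
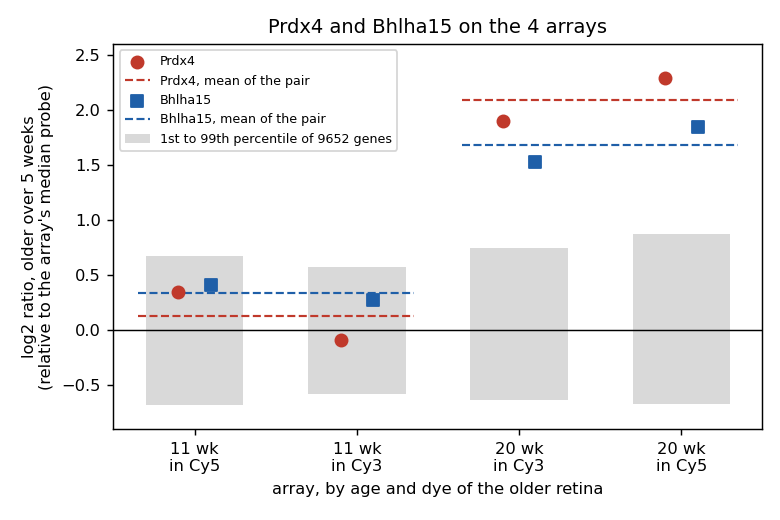
Log2 ratio of the older over the 5-week retina (vertical axis) for Prdx4 (circles) and Bhlha15 (squares) on each of the 4 arrays, named by age and dye of the older retina (horizontal axis). Grey bars span the 1st to the 99th percentile of 9652 genes on each array and dashed lines are means of a pair; both genes lie inside the bars at 11 weeks and above them at 20 weeks, where the 99th percentiles were 0.74 with the older retina in Cy3 and 0.87 with it in Cy5.

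Each gene also had a dye effect, the part of its Cy5 over Cy3 ratio that kept its sign when the dyes were exchanged, taken as the difference of the older-over-5-week ratios of a pair, in Cy5 minus in Cy3, divided by 2. For Prdx4 it was 0.21 in the 11-week pair and 0.20 in the 20-week pair, both toward Cy5. For Bhlha15 it was 0.07 and 0.16. Among all genes, 95% of dye effects lay between -0.40 and 0.46 at 11 weeks and between -0.36 and 0.40 at 20 weeks, a range that held those of both genes. The dye effects of the 2 pairs correlated at 0.82 across genes, which share the dyes but no array. With the dye effect of the 11-week pair taken off, the 20-week arrays, Cy5 first, gave 2.08 and 2.11 for Prdx4, and 1.77 and 1.60 for Bhlha15.

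At 20 weeks, 17 of 9652 genes (0.176%) had a mean above 1, and 5 had a mean above 1.5. After Prdx4 and Bhlha15 these were Dhodh, of pyrimidine synthesis, at 1.63, the chemokine gene Ccl2 at 1.59, and Kmo, of tryptophan breakdown, at 1.58. Both 20-week arrays were above 1.5 for 3 genes, and for 2 of these, Prdx4 and Bhlha15, the 11-week mean was under 0.5. Both were selected on these values, and the limit lies close to other genes. The lower 20-week array was at 1.53 for Bhlha15, 1.48 for Ccl2 and 1.44 for Kmo. Above 1 on both 20-week arrays lay 8 genes, among them Slc38a4 at 1.12 and 1.17, with an 11-week mean of 0.14.

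**Figure D2:**
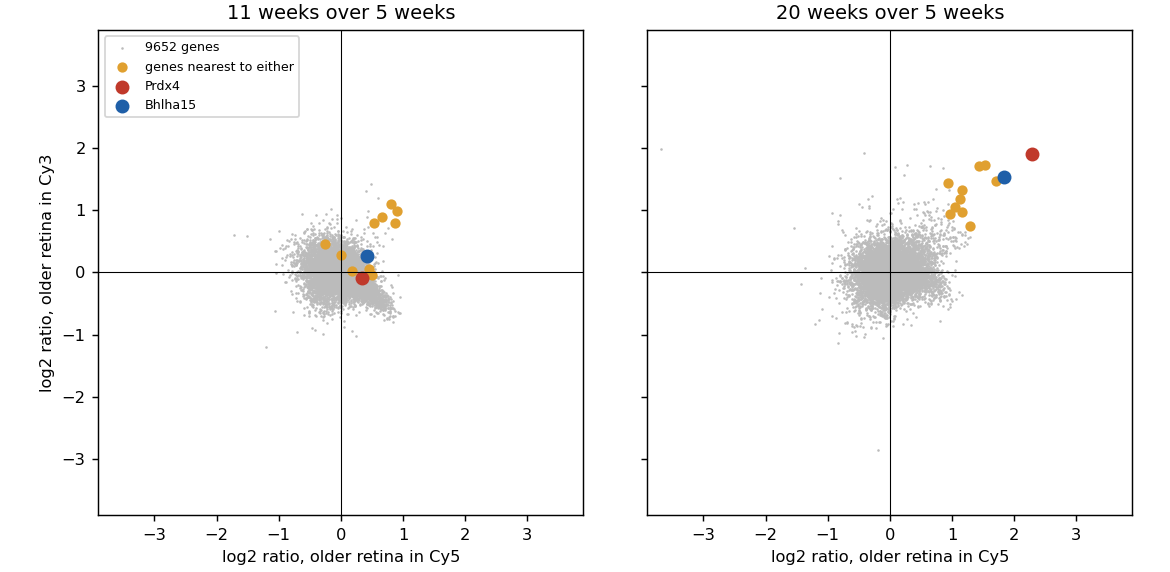
Log2 ratio with the older retina in Cy5 (horizontal) against that with the older retina in Cy3 (vertical) for 9652 genes (grey), at 11 weeks (left) and 20 weeks (right). At 11 weeks Prdx4 (red) and Bhlha15 (blue) lie within or beside the cloud, and at 20 weeks both lie at the upper right, beside the genes with the most similar values (orange).

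Likeness was measured as the Euclidean distance over the 4 array values, which does not depend on the centring. Each of the 2 genes was the nearest named gene to the other, at a distance of 0.69. At least as near to Bhlha15 lay 1 probe without a listed gene. Both genes were selected on these values and had the 2 highest 20-week means, so their closeness is a description. Ccl2 followed for both, at 1.25 from Prdx4 and 0.70 from Bhlha15, and differed in being already high at 11 weeks, at 0.86 and 0.79. Of the 10 genes nearest to each, 8 were common to both. Slc38a4, an amino acid transporter, was at 0.00 and 0.27 on the 11-week arrays and 1.12 and 1.17 on the 20-week arrays, with Cy5 first in each. Mthfd2, a mitochondrial enzyme of folate metabolism, was at 0.50 and -0.04, then 1.29 and 0.75, in the same order. Scgb1d4, a secretoglobin, was at 0.17 and 0.02, then 0.96 and 0.95. The others near to both were Cryzl2, Rpf2, Kmo and Dhodh. Alox12e was near to Prdx4 only and Gchfr to Bhlha15 only.

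**Figure D3:**
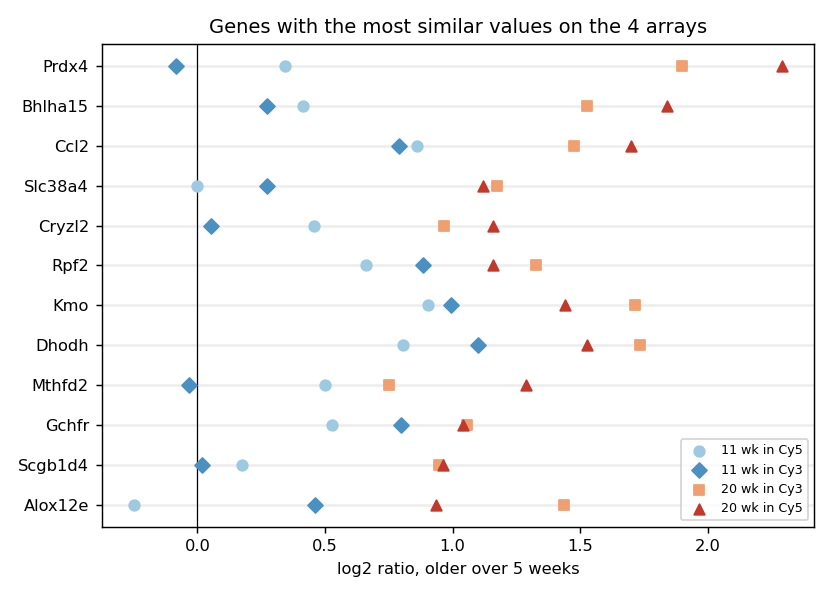
Log2 ratio of the older over the 5-week retina (horizontal) on each of the 4 arrays for Prdx4, Bhlha15 and the genes nearest to either. Prdx4, Bhlha15, Slc38a4, Mthfd2, Scgb1d4, Cryzl2 and Alox12e have an 11-week mean under 0.5, whereas Ccl2, Rpf2, Kmo, Dhodh and Gchfr lie above it at 11 weeks.

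The genes beside them on the chromosome are given as a description. Prdx4 and Bhlha15 had the 2 highest 20-week means and were selected on them, so any neighbour had to be lower. On chromosome X, the 3 measured genes on each side of Prdx4 had 20-week means from -0.27 for Sat1 to 0.40 for Phex, against 2.10 for Prdx4. Acot9, the next measured gene, was at 0.14 ± 0.23 (SD, n = 2). On chromosome 12, those on each side of Bhlha15 ranged from -0.09 for Baiap2l1 to 0.38 for Lmtk2. Tecpr1, whose gene overlaps Bhlha15 in the RefSeq table, was at -0.05 ± 0.18 at 20 weeks and 0.12 ± 0.22 at 11 weeks (SD, n = 2).

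The rest of the secretory pathway was read from 5 lists, in a limma fit across 9652 genes with a term for each gene's dye effect. "Rose", "fell" and "called" mean an adjusted p (Benjamini-Hochberg) under 0.05 in that fit. Such calls may rest on technical spread alone, so they describe these pooled retinas and need not hold for other rats. At 20 weeks, 22 of 121 measured genes of these lists rose and 23 fell, against backgrounds of 17.8% and 13.9% of all genes. The list median was -0.05, beside 0.01 for all genes. At 11 weeks 1 rose and 10 fell, against 2.61% and 6.34% of all genes, with a median of -0.05 beside 0.02. Without the dye term 0 of the 121 passed at either age, as did 0 of all genes, and 13 had an unadjusted p under 0.05 at 20 weeks and 6 at 11 weeks. In simulated data, the fit without that term recovered 0 of 66 genes changed 2-fold at each age. Its count of 0 thus cannot tell changed genes from unchanged ones. In the ratios as deposited, where the median gene lay at 0.29 at 20 weeks, 2 rose and 0 fell.

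Of 6 genes known from mouse secretory cells to be bound or induced by Bhlha15, all measured, 4 rose and 0 fell at 20 weeks, with a median of 0.26. Among all genes, 17.8% rose and 13.9% fell. Rab3d, a small GTPase of secretory granules, was at 0.53 with the 20-week retina in Cy5 and 0.84 with it in Cy3, a mean of 0.68 ± 0.22 (SD, n = 2; limma adjusted p = 0.000128). At 11 weeks it had already risen, to 0.43 and 0.73, a mean of 0.58 ± 0.21. Bhlha15 itself was at 0.34 at 11 weeks, and a link between the ratios of the 2 genes was not tested. Rab26, a related GTPase, was at 0.30 ± 0.26 at 20 weeks, Atp2c2, a Golgi calcium pump, at 0.26 ± 0.09, and Gjb1, connexin 32, at 0.26 ± 0.42. On the single 20-week arrays Gjb1 was at 0.55 in Cy5 and -0.04 in Cy3. Cdkn1a, the cell cycle inhibitor p21, was at 0.17 ± 0.05, and the coatomer subunit gene Copz2 at 0.02 ± 0.25. Neither passed.

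Bhlha15 belongs to a family whose members act in pairs. Tcf3, Tcf4 and Tcf12, the common partners, were at 0.01 ± 0.23, 0.04 ± 0.17 and 0.05 ± 0.01 at 20 weeks, and none passed. Of the Id proteins, which hold such partners away from DNA, Id2 was called lower, at -0.23 ± 0.37. Its arrays disagreed, at 0.025 in Cy5 and -0.49 in Cy3. Id1 at 0.13 ± 0.15 and Id4 at 0.17 ± 0.31 did not pass. At 11 weeks 0 of these 6 genes passed. Of 9 other bHLH genes of retinal development and of the clock, 3 rose and 4 fell at 20 weeks, beside 17.8% and 13.9% of all genes. Ptf1a, a factor of pancreatic acinar cells and of amacrine and horizontal cell fate, rose, at 0.36 ± 0.14. Olig1, of the oligodendrocyte lineage, rose, at 0.27 ± 0.19, and Hey1, a Notch target, at 0.25 ± 0.08. The Notch targets Hey2 and Hes1 fell, at -0.53 ± 0.37 and -0.36 ± 0.45, as did Hes6 and Bhlhe40.

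Of the 5 other peroxiredoxins, 3 fell and 0 rose at each age. Among all genes, 13.9% fell and 17.8% rose at 20 weeks, and 6.34% fell and 2.61% rose at 11 weeks. Prdx1 and Prdx2, of the cytosol, were at -0.27 ± 0.16 and -0.37 ± 0.19 at 20 weeks and at -0.27 ± 0.06 and -0.30 ± 0.05 at 11 weeks. Prdx5, found in mitochondria and peroxisomes, was at -0.34 ± 0.58 and -0.31 ± 0.34. Its 20-week arrays disagreed, at 0.07 in Cy5 and -0.75 in Cy3. Prdx1, Prdx2 and Prdx5 were the 3 called lower. Prdx3, of mitochondria, at -0.19 ± 0.19 and -0.21 ± 0.01, did not pass at either age, nor did Prdx6, at 0.19 ± 0.27 and 0.10 ± 0.40. As deposited, where 0 of the 5 passed, their 20-week median was 0.00, below the median gene's 0.29.

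Of 19 measured enzymes of disulfide formation, which share the ER with Prdx4, 1 rose and 3 fell at 20 weeks, and 0 rose and 1 fell at 11 weeks, with medians of 0.00 and -0.04. The share called was 21.1% at 20 weeks and 5.26% at 11 weeks, beside 31.7% and 8.95% of all genes. P4hb, the protein disulfide isomerase, fell at both ages, at -0.38 ± 0.16 at 20 weeks and -0.46 ± 0.01 at 11 weeks. The transmembrane thioredoxins Tmx1 and Tmx2 fell at 20 weeks, at -0.40 ± 0.22 and -0.24 ± 0.33. Gpx7, a peroxidase of the same compartment, was called higher at 0.23 ± 0.64, but its arrays disagreed, at 0.68 in Cy5 and -0.23 in Cy3. Ero1a, the oxidase that passes electrons to oxygen, was at -0.04 ± 0.29, and Erp44, which retains it, at 0.02 ± 0.01. Neither passed.

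Of 32 measured chaperone and unfolded protein response genes, 8 rose and 5 fell at 20 weeks, with a median of 0.05, and 0 rose and 4 fell at 11 weeks. The share called was 40.6% at 20 weeks and 12.5% at 11 weeks, beside 31.7% and 8.95% of all genes. Those that fell at 20 weeks were chaperones and folding factors: Canx, calnexin, at -0.55 ± 0.09, Ppib, cyclophilin B, at -0.33 ± 0.19, Hsp90b1, the ER form of Hsp90, at -0.30 ± 0.30, Dnajb9 at -0.26 ± 0.40 and Hyou1 at -0.20 ± 0.27. The Dnajb9 arrays disagreed, at -0.55 in Cy5 and 0.02 in Cy3. Hspa5, the main Hsp70 of the ER, was at -0.12 ± 0.02 and did not pass.

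Of those that rose at 20 weeks, Asns, an asparagine synthetase that Atf4 is known to induce, was at 0.90 with the 20-week retina in Cy5 and 0.43 with it in Cy3, a mean of 0.67 ± 0.34 (limma adjusted p = 0.000155). Chac1, an enzyme that breaks down glutathione, was at 0.39 ± 0.16, and Trib3, a stress pseudokinase, at 0.27 ± 0.47. The Trib3 arrays disagreed, at 0.61 in Cy5 and -0.06 in Cy3. Ddit3, or CHOP, a factor of prolonged ER stress, was at 0.33 in Cy5 and 0.41 in Cy3, a mean of 0.37 ± 0.06. Ddit3 had fallen at 11 weeks, at -0.31 ± 0.23, as had Atf4 itself, at -0.70 ± 0.09. Atf4 did not pass at 20 weeks, at -0.15 ± 0.09. Sel1l, of the pathway that clears misfolded proteins, rose, at 0.33 ± 0.15, and so did Sil1, Creb3l3 and Nupr1, at 0.20 to 0.27.

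Of 27 measured genes of entry into the ER and of early glycosylation, 9 fell and 4 rose at 20 weeks, with a median of -0.13, and 3 fell and 0 rose at 11 weeks. The share called was 48.1% at 20 weeks and 11.1% at 11 weeks, beside 31.7% and 8.95% of all genes. Dad1 and Rpn1, subunits of the oligosaccharyltransferase that attaches sugar chains, were at -0.37 ± 0.40 and -0.31 ± 0.56, Tram1, beside the channel, at -0.32 ± 0.20, and Sec11a, of the signal peptidase, at -0.30 ± 0.11. The Rpn1 arrays disagreed, at 0.08 in Cy5 and -0.71 in Cy3. Magt1, another oligosaccharyltransferase subunit, rose, at 0.45 ± 0.14, as did Spcs2, of the signal peptidase, at 0.33 ± 0.53, and Srpra and Ssr1. Arrays also disagreed for Spcs2, at 0.71 in Cy5 and -0.04 in Cy3, and for Ssr1, at 0.60 and -0.18. Of 38 genes of transport to the Golgi, 6 fell and 5 rose at 20 weeks, and 2 fell and 0 rose at 11 weeks. Thus 28.9% were called at 20 weeks, beside 31.7% of all genes, and 5.26% at 11 weeks, beside 8.95%. Tmed2, a cargo receptor, was at -0.43 ± 0.44, the GTPase Arf1 at -0.35 ± 0.10, and the coatomer subunit genes Copg2 and Copz1 at -0.31 ± 0.13 and -0.27 ± 0.11. Golga2, a Golgi matrix protein, rose, at 0.29 ± 0.07, with Bet1, Copb2, Tmed4 and Sec16b at 0.21 to 0.23. The Bet1 arrays disagreed, at 0.67 in Cy5 and -0.20 in Cy3.

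**Figure D4:**
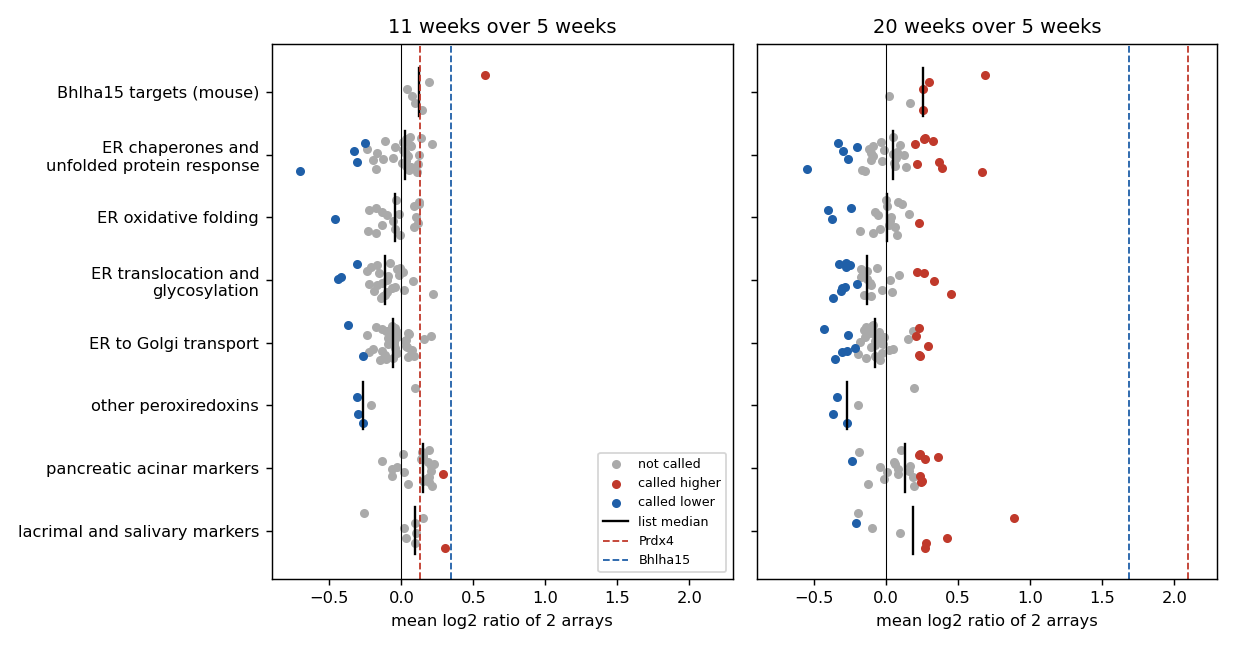
Mean log2 ratio of the older over the 5-week retina (horizontal, 2 arrays each) for each measured gene of 8 lists at 11 weeks (left) and 20 weeks (right), with genes that rose in red, genes that fell in blue and list medians as black bars. At 20 weeks the lists lie between -0.55 and 0.88. Dashed lines mark Bhlha15 at 1.69 and Prdx4 at 2.10, the 2 highest means of all genes, on which they were selected.

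Markers of tissues in which Bhlha15 is known to be active were set beside it. Of all genes, 17.8% rose and 13.9% fell at 20 weeks, and 2.61% rose and 6.34% fell at 11 weeks, the shares against which the marker counts are read. Of 22 pancreatic acinar genes without Bhlha15, 7 rose and 1 fell at 20 weeks, with a median of 0.13, and 1 rose at 11 weeks, with a median of 0.15. The digestive enzyme genes among them stayed small in ratio, such as Prss1, a trypsinogen, at 0.27 ± 0.30, Cela3b, an elastase, at 0.25 ± 0.83, and Cpb1, a carboxypeptidase, at 0.23 ± 0.14. Cela3b was at -0.34 in Cy5 and 0.83 in Cy3. Pnliprp2, a lipase, fell, at -0.24 ± 0.13. Of 8 lacrimal and salivary gland genes, 4 rose and 1 fell at 20 weeks. Pip, a secreted protein of these glands, was at 0.08 with the 20-week retina in Cy5 and 1.69 with it in Cy3, a mean of 0.88 ± 1.14. Its ratio thus came from a single array. Chrm3, a muscarinic receptor, was at 0.42 ± 0.37, Aqp5, a water channel of gland cells, at 0.27 ± 0.22, and Bpifa2 at 0.27 ± 0.40. Krt7, a keratin of ducts, was called lower at -0.21 ± 0.63, but its arrays disagreed, at -0.66 in Cy5 and 0.24 in Cy3. Their part in the Bhlha15 ratio was not tested.

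Of 5 measured markers of plasma and B cells, 0 rose and 1 fell at 20 weeks, and 2 rose and 0 fell at 11 weeks. Jchain, the joining chain of secreted antibodies, was at 0.09 ± 0.12, Cd79b at 0.09 ± 0.17, and Tnfrsf17, the plasma cell receptor BCMA, at 0.14 ± 0.31. None of these passed. Sdc1, syndecan-1, which plasma cells and epithelia carry, was the gene that fell, at -0.88 in Cy5 and -0.26 in Cy3, and had risen at 11 weeks, at 0.48 and 1.43. Ms4a1, the B cell antigen CD20, had also risen at 11 weeks, at 0.27 ± 0.28, and at 20 weeks, at 0.08 ± 0.19, it did not pass. Retinal cells were read the same way. Of 14 rod genes 8 fell and 0 rose at 20 weeks, and of 9 Müller cell genes 7 fell and 1 rose, Guca1b at -0.72 ± 0.16 and Vim at -0.45 ± 0.07 among the lowest. Of 8 genes of pigment epithelium and choroid 2 rose and 1 fell, with Tyr, tyrosinase, at 0.77 ± 0.16, Lrat at 0.20 ± 0.01 and Tyrp1 at -0.34 ± 0.16. At 11 weeks 9 rod, 3 Müller cell and 1 pigment epithelium gene fell, and 0, 0 and 1 rose. Of the rod genes that fell, 7 of 9 at 11 weeks and 7 of 8 at 20 weeks were below 0 on both arrays. The Gnb1 arrays disagreed at both ages, at 0.25 in Cy5 and -1.03 in Cy3, then 0.22 and -0.83. As deposited, 0 rod and 0 Müller cell genes passed at either age. Their 20-week medians were then 0.01 and -0.015, below the median gene's 0.29.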

How the data were processed

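The authors' deposited table held log2 ratios of the channels of 4 two-colour arrays, judged from the values: 251 unnamed probes stood at log2 of 100000. The scale is thus known. Its centring and direction are not stated, nor is a scanner, image software or normalization step. Per the labels' protocols, total RNA of pooled retinas was amplified before labelling. Spot intensities were not used here, so nothing is said of background or detection.

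GEO's platform annotation gave 1 gene for 12750 of 22575 probes, several for 5 and none for 9820. RefSeq's GRCr8 table held 12720 of those gene identifiers and changed 0 symbols. Ceiling values were dropped, the median of the named probes was taken from each array, ratios were turned to older over 5 weeks, and a gene's probes were averaged. Genes were fitted with limma 3.58.1 (R 4.3.3) over all 4 arrays, with changes at 11 and 20 weeks and a dye term, which left 1 residual degree of freedom. Adjusted p-values are Benjamini-Hochberg over 9652 genes, two-sided, and the number of arrays limits the precision. A gene's residual spread in this fit is the difference between the dye effects of its 11-week and 20-week pairs. The SD printed beside a mean is the spread within a pair, which the dye term takes up. Since separate RNA for each array is not stated, these p-values may reflect technical spread alone. The fit was tested on simulated data, in which its calls at 11 weeks held more unchanged genes than the threshold aims at. There, 56 unchanged genes were called, beside 66 of 67 changed 1.3-fold, 67 of 67 changed 1.5-fold and 66 of 66 changed 2-fold. At 20 weeks 9 unchanged genes were called, beside 57 of 67, 65 of 67 and 66 of 66 in the same order. Alternatives were no dye term, ratios as deposited, centring on all probes, single probes and leaving out each array.

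Members and lists were chosen with earlier results of these data known. Genes were named by rule: the 2 members, the 10 nearest to each over the 4 arrays, up to 4 called genes per list and direction with the largest 20-week changes, the 3 measured neighbours on each side, and all peroxiredoxins and bHLH partners. Further genes named within lists (among them Ero1a, Erp44, Hspa5, Atf4, Hyou1, Ms4a1 and genes given without a value) were chosen after their values were seen. Promoter sequences are from RefSeq, build GRCr8, and both genes matched by symbol.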

Additional observations from a re-analysis of the deposited data

Results flagged for a closer look

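Of 229 genes looked at, 5 lay on opposite sides of the median probe at the 2 ages, on both arrays of each, and passed at one age or both. The share of all genes that met this rule was not counted, so the count has no background and is a description. The differences between the ages were not tested. Sdc1, syndecan-1, was at -0.57 at 20 weeks and 0.95 at 11 weeks. Ddit3, the stress factor CHOP, was at 0.37 at 20 weeks and -0.31 at 11 weeks. Sel1l, of the clearance of misfolded ER proteins, was at 0.33 and -0.12, Srpra, of the receptor that docks ribosomes to the ER, at 0.26 and -0.16, and Apoe, an apolipoprotein of Müller cells, at -0.34 and 0.10, 20 weeks first in each.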

How the results depend on the processing

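As deposited, without centring, Prdx4 was at 2.37 and Bhlha15 at 1.96 at 20 weeks. With either 20-week array left out, Prdx4 lay between 1.90 and 2.29 and Bhlha15 between 1.53 and 1.84. With either 11-week array left out, Prdx4 lay between -0.09 and 0.34 and Bhlha15 between 0.27 and 0.41. Taking the dye effect from the 11-week pair, as given above for both genes, was an alternative chosen after seeing the data. Each gene had 1 probe, so no other summary of probes could be made. Over all genes, 864 were called at 11 weeks and 3057 at 20 weeks (1715 higher and 1342 lower), against 0 and 0 without the dye term, where 367 and 888 had an unadjusted p under 0.05. As deposited 0 were called at 11 weeks and 133 at 20 weeks (132 higher and 1 lower). Centred on all probes, 451 were called at 11 weeks. Of the secretory genes, 11 were called at 11 weeks and 45 at 20 weeks, against 0 and 0 without the dye term, 0 and 2 as deposited, and 7 at 11 weeks centred on all probes. Leaving out each array in turn was fitted without the dye term, since with it no residual degree of freedom was left. It called between 0 and 0 genes at 11 weeks, between 0 and 5 at 20 weeks, and between 0 and 0 secretory genes at either age. Of the 22 secretory genes that rose at 20 weeks, 16 (72.7%) were above 0 on both arrays, beside 81.0% of all genes that rose. Of the 23 that fell, 21 (91.3%) were below 0 on both, beside 90.8% of all genes that fell.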

Other observations

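Among 9261 probes without a listed gene and with a value on all arrays, 2 were above 1.5 on both 20-week arrays, against 3 named genes. Within a distance of 1 of the 4 values of Prdx4 lay 1 such probe and 1 named gene, Bhlha15, and within that distance of Bhlha15 lay 3 such probes and 7 named genes. The bases before both genes were rich in G and C, at 66.0% for Prdx4 and 69.6% for Bhlha15, against a median of 59.6% over 7947 stretches, and 73.1% and 83.4% of stretches had a lower share.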
